A study of Rattus norvegicus with 6 samples.

Results

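Dhx9 and 9 further genes for enzymes and binding proteins that act on double-stranded RNA were followed in rat vascular smooth muscle cells after knockdown of the long noncoding RNA MIAT. The genes were taken by symbol from the deposited tables of counts and FPKM, and 10 of 10 were found among 18631 listed genes. They are Dhx9, the editing enzymes Adar and Adarb1, the microRNA processing genes Drosha, Dgcr8 and Dicer1, the Dicer partners Tarbp2 and Prkra, and the Staufen genes Stau1 and Stau2. Polyadenylated RNA was sequenced in 3 libraries with the genotype label MIAT knockdown and in 3 with the genotype label WT, whose titles begin with Scr and which are called Scr control. The cells came from vessel and, per the labels, received siRNAs (small interfering RNAs) together with ASOs (antisense oligonucleotides), 50 nM combined, over 72 h. All 6 libraries carry that text, and which oligonucleotides the Scr control cells were given is not stated. The labels give neither the vessel nor the rat strain, and they do not say whether each library had its own culture, so the p-values cover the spread between these libraries, which may be technical. Miat itself was not analysed here, so the groups are named by their labels.

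DHX9, also called RNA helicase A, unwinds RNA duplexes and RNA bound to DNA, and the series title pairs it with MIAT. Cells meet double-stranded RNA in folded messages, in microRNA precursors, in inverted repeats and in viruses. ADAR enzymes convert adenosine to inosine in such duplexes, Drosha with DGCR8 and then Dicer cut microRNAs out of them, and Staufen proteins bind duplexes in messenger RNA. Left unedited or unresolved, cellular duplexes can switch on the sensors MDA5 and PKR. In mice, loss of Dicer in smooth muscle impairs the contractile vessel wall.

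Total counts were 18173111 to 18598394 in MIAT knockdown libraries and 17793811 to 20121161 in Scr control libraries. The 8 smooth muscle markers summed to 5261 to 7651 CPM in MIAT knockdown libraries and to 5948 to 7623 CPM in Scr control libraries (CPM are counts scaled to library size with TMM normalization, which sets libraries on a scale where most genes do not differ). Myh11, the smooth muscle myosin, was at 166 ± 78.6 CPM in knockdown libraries and 226 ± 58.7 CPM in control libraries, while Des, the muscle filament desmin, was near 0 at 0.457 ± 0.309 CPM and 0.480 ± 0.227 CPM (SD, n = 3 each). The 6 endothelial markers summed to 4.15 to 5.15 CPM in knockdown libraries and 5.35 to 9.52 CPM in control libraries, and the 6 leukocyte markers to 9.33 to 14.0 CPM and 8.29 to 21.5 CPM. Cdh5 and Ptprc, which define endothelial cells and leukocytes, were at 0.0179 and 0.0173 CPM in knockdown libraries and at 0.0187 and 0 CPM in control libraries. Other members of these lists were detected. Kdr, Cd68 and Csf1r were at 2.24, 4.03 and 5.32 CPM in knockdown libraries and at 4.58, 7.29 and 5.12 CPM in control libraries. The 5 fibroblast and adventitial markers summed to 271 to 476 CPM in knockdown libraries and 417 to 699 CPM in control libraries, nearly all of it Pdgfra, at 343 ± 102 and 509 ± 145 CPM. The 4 Schwann cell markers summed to 3.11 to 3.99 CPM in knockdown libraries and 5.55 to 7.06 CPM in control libraries. In the block fit described below, edgeR called 5 of the 20 tested markers lower and 0 higher, against 11.1% and 10.5% of all genes tested. The 5 were Pdgfra (log2 fold change -0.57, adjusted p = 0.00129), Dpt (-0.63, 0.0290), Kdr (-1.02, 0.0148), Myh11 (-0.51, 0.0162) and Lmod1 (-0.30, 0.0372). Without the libraries numbered 1, and again without those numbered 2, that fit called 1 smooth muscle and 1 fibroblast marker lower and 0 endothelial, leukocyte or Schwann cell ones. Without those numbered 3 it called 2 smooth muscle, 1 fibroblast, 1 endothelial, 2 leukocyte and 1 Schwann cell marker lower and 0 higher. That last fit called 2200 of 13602 genes lower. The part of these markers in the results that follow was not tested. In bulk RNA, fewer cells of a type and less RNA per cell cannot be told apart.

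Of the 10 genes, Dhx9 had the highest level per length, and Adarb1 the lowest. FPKM, the count scaled by gene length and library total, allows genes to be compared with each other. Dhx9 averaged 38.6 ± 3.76 FPKM in MIAT knockdown libraries and 41.6 ± 3.62 FPKM in Scr control libraries (SD, n = 3 each), at percentile 86.7 of the 13423 genes tested. Adarb1 averaged 1.83 ± 0.162 FPKM in knockdown libraries and 1.75 ± 0.114 FPKM in control libraries, at percentile 23.9. In between lay Stau1, Prkra, Tarbp2, Adar, Drosha, Dicer1, Dgcr8 and Stau2 in that order. Neighbours kept this order in 6 of 6 libraries except Adar above Drosha, in 5 of 6, and Dgcr8 above Stau2, in 3 of 6. The mean FPKM ratio was 1.02 for Adar over Drosha and 1.03 for Dgcr8 over Stau2, so neither pair differed beyond the spread between libraries. Dhx9 alone made up 28.9%, 29.0% and 24.7% of the summed FPKM of the 10 genes in the knockdown group (libraries 1 to 3), against 31.5%, 30.3% and 26.4% in the control group.

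**Figure D1:**
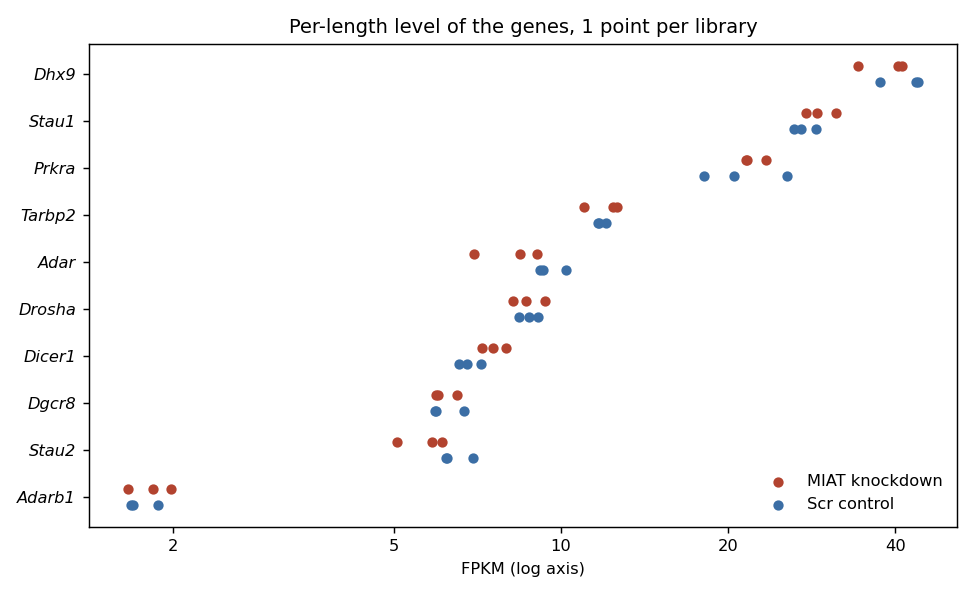
Levels per length of the 10 genes as FPKM on a log axis, with 1 point per library, MIAT knockdown above Scr control in each row. Genes run from Dhx9, near 40 FPKM, to Adarb1, below 2 FPKM, and the knockdown points of Adar and Stau2 lie left of all control points.

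Promoter sequences can be set beside these levels, as background on where the genes begin. RefSeq's GRCr8 table gave promoters for 8 of the 10 genes. Shown here are the 250 bases before the start of Dhx9 and of the 3 microRNA processing genes, which shared a motif. Capitals mark the CCAAT box (CCAAT, or ATTGG on the other strand) and the ETS site (CCGGAAGT).
Dhx9, chr13:68189547-68189796, minus strand: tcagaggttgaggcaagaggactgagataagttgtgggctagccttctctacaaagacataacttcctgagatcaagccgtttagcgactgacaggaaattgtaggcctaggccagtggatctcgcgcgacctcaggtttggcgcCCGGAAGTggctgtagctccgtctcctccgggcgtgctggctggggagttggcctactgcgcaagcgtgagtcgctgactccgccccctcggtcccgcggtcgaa
Drosha, chr2:63591728-63591977, plus strand: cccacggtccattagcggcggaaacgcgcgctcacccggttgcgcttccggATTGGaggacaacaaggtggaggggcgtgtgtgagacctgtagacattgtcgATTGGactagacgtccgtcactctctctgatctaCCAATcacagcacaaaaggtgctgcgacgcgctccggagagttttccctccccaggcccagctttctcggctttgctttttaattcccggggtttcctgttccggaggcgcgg
Dgcr8, chr11:96208788-96209037, plus strand: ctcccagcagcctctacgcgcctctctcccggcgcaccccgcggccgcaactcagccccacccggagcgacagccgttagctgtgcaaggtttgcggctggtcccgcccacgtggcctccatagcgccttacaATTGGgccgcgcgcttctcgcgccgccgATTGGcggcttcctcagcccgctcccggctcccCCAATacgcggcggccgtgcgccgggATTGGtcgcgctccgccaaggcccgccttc
Dicer1, chr6:129457253-129457502, minus strand: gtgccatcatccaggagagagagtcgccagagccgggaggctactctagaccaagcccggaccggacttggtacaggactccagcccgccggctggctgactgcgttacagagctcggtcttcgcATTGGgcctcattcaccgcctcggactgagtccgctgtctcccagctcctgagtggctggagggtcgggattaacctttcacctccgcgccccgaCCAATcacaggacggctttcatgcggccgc
The Dhx9 stretch held an ETS site that begins at position -105 from the start and no CCAAT box. Drosha held 3 CCAAT boxes, Dgcr8 4 and Dicer1 2, and none of these 3 genes held the ETS site. Among 27457 RefSeq promoters of the same length, 34.3% held at least 1 CCAAT box and 3.29% the ETS site. The E-box CACGTG, in 5.79% of all promoters, was found only in Dgcr8. Of the others, Prkra held 1 CCAAT box. Both strands were searched, and the motifs were chosen after the sequences were seen. A match describes letters only.

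Dhx9 was lower by about 14% in the libraries labelled MIAT knockdown. Its level was 182, 192 and 158 CPM in knockdown libraries 1 to 3, against 211, 214 and 192 CPM in control libraries 1 to 3. The groups did not overlap, but knockdown library 2 and control library 3 were 191.8 and 192.3 CPM and so nearly touched. Library 3 was the lowest of each group. By same-numbered pair, the log2 difference was -0.21, -0.16 and -0.29. On the deposited FPKM scale, which uses library totals, the groups overlapped, with 40.5, 41.1 and 34.3 FPKM in knockdown libraries and 43.9, 43.6 and 37.5 FPKM in control libraries.

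Library titles carry the numbers 1 to 3 in both groups, and same-numbered libraries deviated together, so each gene was tested without and with the replicate number as a block. For Dhx9, edgeR's quasi-likelihood test estimated a log2 fold change of -0.21 ± 0.096 (SE) without the block (adjusted p = 0.284) and of -0.22 ± 0.055 with it (adjusted p = 0.0250). Below, a gene rose or fell if edgeR's block fit put its adjusted p under 0.05. Without the block, edgeR called 0 of 13423 genes, or 0.0%, and 0 of the 10, while 2576 genes, or 19.2%, were at an unadjusted p under 0.05, among them 2 of the 10, Adar and Stau2. On that design DESeq2 called 699 genes and limma-voom 0, and neither called any of the 10. With the block, edgeR called 21.6% of all genes, 11.1% lower and 10.5% higher. Of the 10 genes, 3 fell, 0 rose and 7 did not pass. Their median log2 fold change was -0.10 in both fits, against -0.01 over all genes tested. The 3 that fell were Adar, Stau2 and Dhx9, and these were also the 3 whose groups did not overlap, a state that 26.0% of all genes shared. On the TMM scale the knockdown library was lower in all 3 pairs in 6 of the 10 genes, against 28.5% of all genes. In 0 it was higher in all 3, against 28.0%. On the deposited FPKM scale only Dhx9, Adar and Stau2 stayed lower in all 3 pairs. There the knockdown library of pair 3 was higher for Drosha (9.35 against 8.74 FPKM), Tarbp2 (12.6 against 11.7) and Dgcr8 (6.01 against 5.94). Dicer1 and Stau1 were higher in all 3 pairs on that scale. Shares of all genes were not taken on it.

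**Figure D2:**
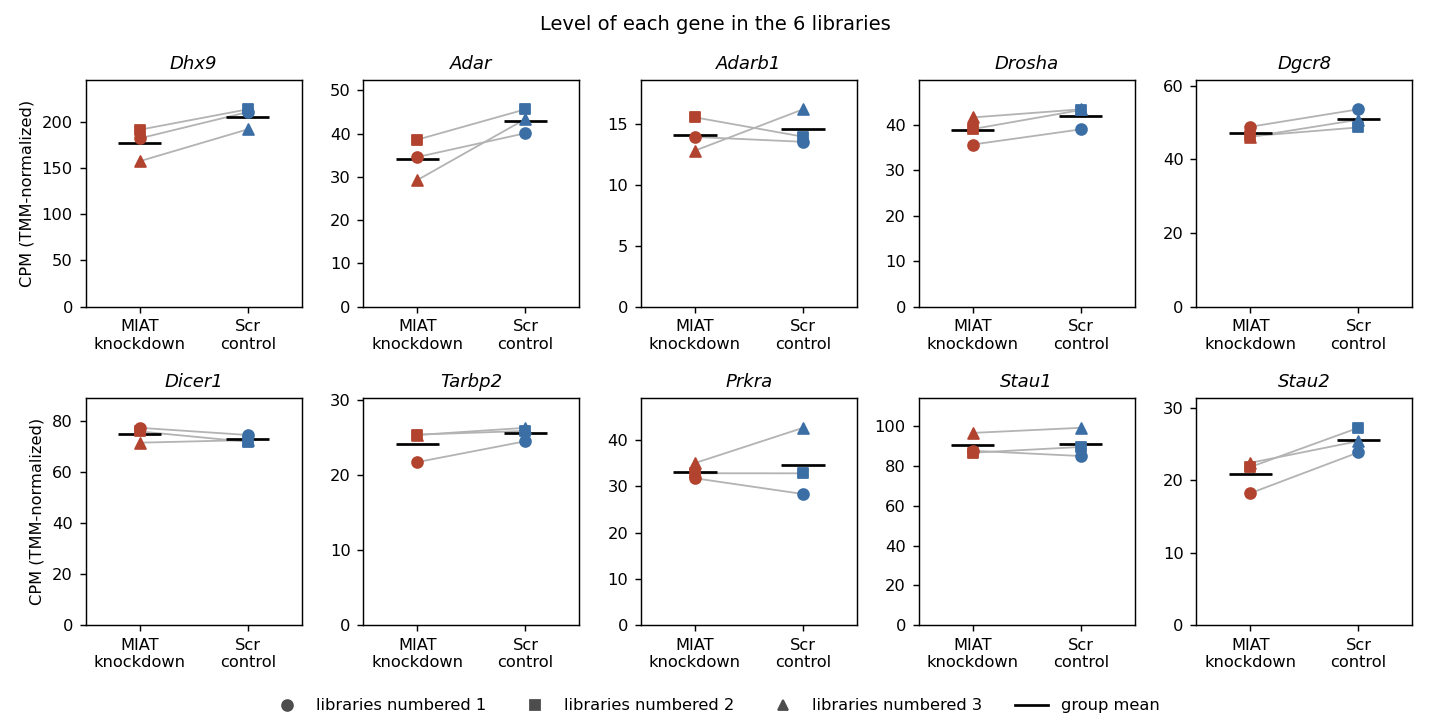
CPM of each gene in every library, MIAT knockdown left of Scr control, with a grey line joining same-numbered libraries and a black bar at the group mean. In Dhx9, Adar and Stau2 all 3 lines run upward to the control group and the groups do not overlap.

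The Dhx9 call depended on scaling and on single pairs. It ended with total count scaling (log2 fold change -0.11, edgeR adjusted p = 0.160), with an offset for gene length (-0.17, 0.0905), without pair 1 (-0.22, 0.132) and without pair 2 (-0.25, 0.113). Without pair 3 it held (-0.19, 0.0109), as it did with the block in DESeq2 (-0.23, 0.0481). The fit without pair 3 called 4124 of 13602 genes, more than the 2898 called with all 3 pairs, so it was not a stricter check. Over all genes, total count scaling lifted the median by 0.108 on the log2 scale in both fits, so directions are relative to TMM.

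The genes whose profile over the 6 libraries lay nearest to that of Dhx9 were Serinc3, Slc41a3, Zc3h7a, Zfyve16 and Camk2g. Likeness was the root mean square difference of centred log2 CPM over the 6 libraries, among 9136 other genes of at least 10 CPM. It ran from 0.0305 for Serinc3 to 0.0342 for Camk2g, against a median of 0.216 over these genes. Serinc3 averaged 412 CPM in knockdown libraries and 483 CPM in control libraries. Among the followed genes, Adar came nearest to Dhx9, at rank 511 with a difference of 0.102, and Prkra was farthest, at rank 6273 with 0.264.

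Of the editing enzymes, Adar fell and Adarb1 did not pass. Adar encodes ADAR1, the broadly expressed editor with an interferon-inducible longer form, which keeps cellular duplexes from activating MDA5. Its level was 34.6, 38.6 and 29.3 CPM in knockdown libraries, against 40.1, 45.6 and 43.4 CPM in control libraries. Every knockdown library lay below every control library, and knockdown library 3 was the lowest. The log2 difference was -0.21, -0.24 and -0.57 in pairs 1 to 3, so pair 3 carried the largest part. The block fit of edgeR estimated -0.34 ± 0.086 (SE, adjusted p = 0.0256), and the fit without it -0.33 (adjusted p = 0.193). The call held with the gene length offset (-0.30, 0.0457), without pair 1 (-0.40, 0.0383) and without pair 3 (-0.23, 0.0259), the last in the fit that called the most genes. It ended with total count scaling (-0.23, 0.0621), without pair 2 (-0.39, 0.0974) and with the block in DESeq2 (-0.35, adjusted p = 0.0533).

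Adarb1 encodes ADAR2, the editor best known for recoding glutamate receptor messages in the brain, and in mouse arteries for editing the filamin A message. It stood at 13.9, 15.6 and 12.8 CPM in knockdown libraries and 13.5, 14.0 and 16.2 CPM in control libraries. The groups overlapped, and the pairs went both ways, with log2 differences of 0.04, 0.16 and -0.34. The block fit of edgeR estimated -0.05 ± 0.12 (SE, adjusted p = 0.811), the widest SE of the 10 genes in that fit.

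The ratio of Adar to Adarb1 was lower in each knockdown library than in any control library. A ratio of FPKM within a library does not depend on library scaling. Adar was 4.56, 4.56 and 4.20 times the level of Adarb1 per length in knockdown libraries, against 5.45, 6.01 and 4.92 times in control libraries. The log2 ratio differed by -0.29, with an exact two-sided permutation p of 0.1, the smallest that 3 against 3 allows, and 0.25 after Benjamini-Hochberg adjustment over the 5 ratios compared. Within pairs the difference was -0.26, -0.40 and -0.23. Editing itself was not analysed here.

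Profiles near that of Adar were those of Birc6, Arid5b, Nacad and Ascc3, with differences of 0.0289 to 0.0413 against a median of 0.263. Birc6 averaged 199 CPM in knockdown libraries and 254 CPM in control libraries. Dhx9 ranked 132 in likeness to Adar, ahead of the other followed genes, of which Stau2 came next at rank 1110.

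**Figure D3:**
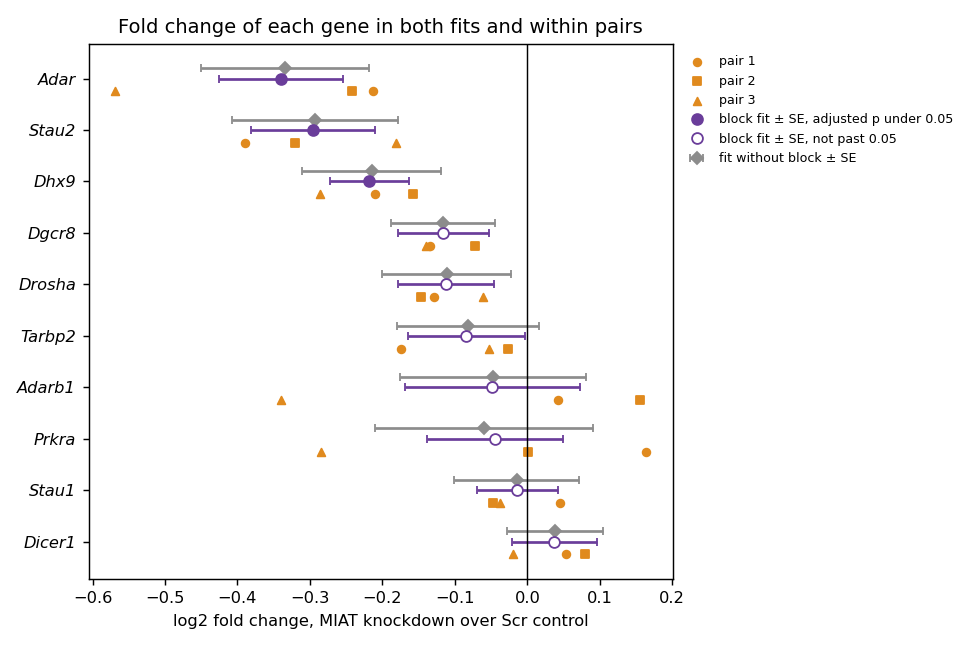
Log2 fold change of MIAT knockdown over Scr control for each gene, with the fit without the block as grey diamonds, the block fit as circles (both ± SE) and the within-pair differences as orange marks. Adar, Stau2 and Dhx9 are filled, with block-fit values of -0.34, -0.30 and -0.22, and the pair marks of Adarb1 and Prkra spread to both sides of 0.

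Of the Staufen genes, Stau2 fell and Stau1 did not pass. Staufen proteins carry several double-stranded RNA binding domains and recruit the helicase UPF1 to some messages, which are then degraded. STAU1 is broadly expressed, and STAU2 is best known for RNA transport in neurons. Stau2 was at 18.2, 21.8 and 22.4 CPM in knockdown libraries, against 23.9, 27.3 and 25.4 CPM in control libraries. The groups did not overlap, and knockdown library 1 was the lowest. The log2 difference was -0.39, -0.32 and -0.18 in pairs 1 to 3. The block fit of edgeR estimated a log2 fold change of -0.30 ± 0.085 (SE, adjusted p = 0.0395), and the fit without it -0.29 (adjusted p = 0.229). The call ended with total count scaling (-0.19, 0.162), with the gene length offset (-0.28, 0.0537), with the block in DESeq2 (-0.31, adjusted p = 0.172), without pair 1 (-0.25, 0.199) and without pair 2 (-0.28, 0.193). It held without pair 3 (-0.36, 0.0045), in the fit that called the most genes. RefSeq places a pair of long noncoding genes across Stau2, a long noncoding gene across Prkra, and Mir1306 and a pseudogene across Dgcr8. The strand setting of the counting is not given in the sources used here, so reads of these genes and of Stau2, Prkra and Dgcr8 cannot be told apart.

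Stau1 stood at 87.8, 86.8 and 96.7 CPM in knockdown libraries and 85.1, 89.7 and 99.3 CPM in control libraries. Library 3 was the highest in both groups, and the groups overlapped. Its log2 fold change was -0.01 ± 0.056 in the block fit (SE, edgeR adjusted p = 0.887). Stau1 was 5.71, 4.71 and 5.11 times as high as Stau2 per length in knockdown libraries, against 4.23, 3.90 and 4.63 times in control libraries. The log2 ratio differed by 0.28, the groups did not overlap, and all 3 pairs were higher, with an exact two-sided permutation p of 0.1 and 0.25 after adjustment over the 5 ratios.

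**Figure D4:**
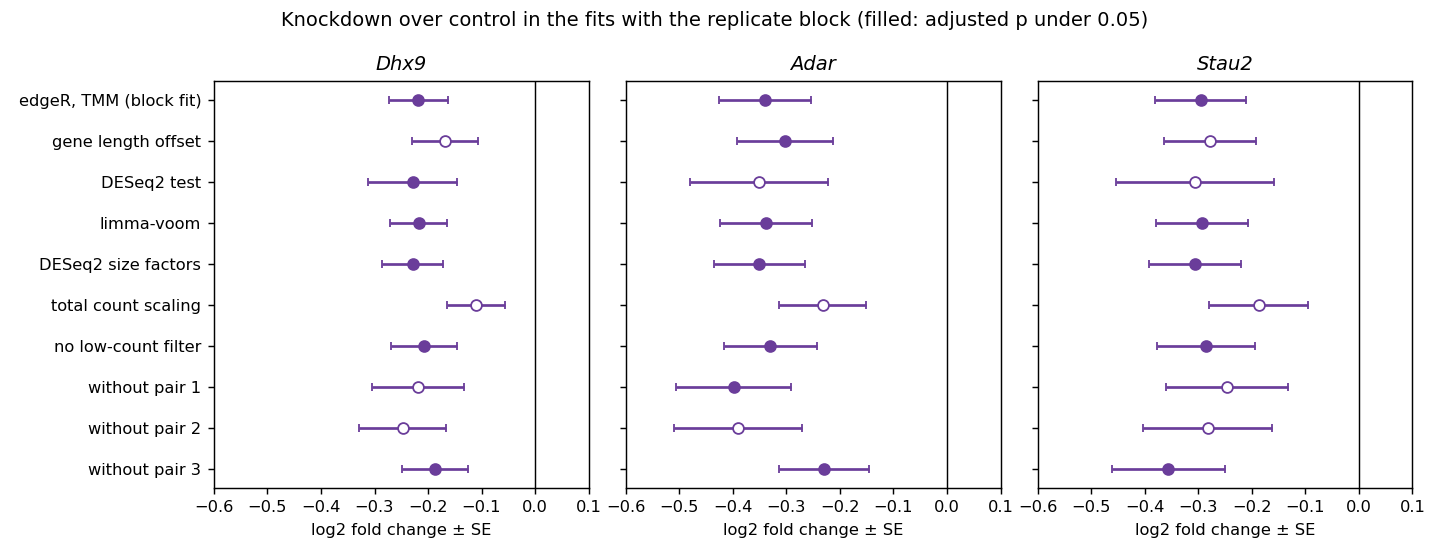
Log2 fold change ± SE of Dhx9, Adar and Stau2 in the 10 fits with the replicate block, MIAT knockdown over Scr control, filled where the adjusted p was under 0.05. All 30 values lie below 0, and total count scaling ended all 3 calls.

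None of the 3 microRNA processing genes passed. Drosha cuts primary microRNA transcripts in the nucleus, with DGCR8 as its RNA-binding partner, and Dicer cuts the resulting hairpins in the cytoplasm. Drosha was at 35.6, 39.0 and 41.6 CPM in knockdown libraries and 39.0, 43.2 and 43.4 CPM in control libraries. Each knockdown library was lower than its same-numbered control, but the groups overlapped. Its block-fit log2 fold change was -0.11 ± 0.067 (SE, edgeR adjusted p = 0.262), and with total count scaling it was -0.0039 ± 0.073. Dgcr8 was at 48.9, 46.3 and 46.1 CPM in knockdown libraries and 53.7, 48.7 and 50.8 CPM in control libraries. It was also lower in 3 of 3 pairs of CPM, at -0.12 ± 0.063 (SE, edgeR adjusted p = 0.221). The Dgcr8 value was -0.0078 ± 0.066 with total count scaling and 0.0044 ± 0.066 with the gene length offset, both with the block. On the deposited FPKM scale its knockdown library 3 was above control library 3, at 6.01 against 5.94 FPKM. Dicer1 was at 77.3, 75.8 and 71.4 CPM in knockdown libraries and 74.4, 71.8 and 72.4 CPM in control libraries. It alone of the 10 had a positive log2 fold change in both fits, 0.04 ± 0.058 in the block fit (SE, edgeR adjusted p = 0.684). The Dicer1 value was 0.20 ± 0.061 with the gene length offset (edgeR adjusted p = 0.0539) and 0.15 ± 0.059 with total count scaling (0.101), both with the block.

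The proportions among these enzymes overlapped between the groups. Drosha complexes also cut hairpins in the Dgcr8 message, and Dgcr8 protein stabilizes Drosha, as known from human and mouse cells. The ratio of Drosha to Dgcr8 per length was 1.42 ± 0.152 in knockdown libraries and 1.42 ± 0.146 in control libraries (SD, n = 3 each), a log2 difference of 0.0032 with an exact two-sided permutation p of 0.9. The ratio of Dicer1 to Drosha was 0.972, 0.871 and 0.770 in knockdown libraries and 0.856, 0.744 and 0.749 in control libraries. It was higher in 3 of 3 pairs, by 0.15 on the log2 scale on average, but the groups overlapped (exact two-sided permutation p = 0.2, and 0.333 after adjustment over the 5 ratios). Without knockdown library 1 the difference was 0.0674, and without knockdown library 3 it was 0.236.

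The Dicer partners did not pass either. Tarbp2 encodes TRBP, which binds Dicer and inhibits PKR, and Prkra encodes PACT, which binds Dicer and can activate PKR. Tarbp2 was at 21.7, 25.4 and 25.4 CPM in knockdown libraries and 24.5, 25.9 and 26.3 CPM in control libraries, lower in 3 of 3 pairs by 0.17, 0.03 and 0.05 on the log2 scale, values within the spread between libraries. Its block-fit log2 fold change was -0.08 ± 0.080 (SE, edgeR adjusted p = 0.488), and with total count scaling it was 0.0241 ± 0.084. Prkra was at 31.7, 32.8 and 35.0 CPM in knockdown libraries and 28.3, 32.8 and 42.6 CPM in control libraries. Control library 3 was the highest and control library 1 the lowest of the 6, so the knockdown values lay inside the control range. Its coefficient of variation was 5.04% in the knockdown group and 21.2% in the control group. The block fit gave -0.04 ± 0.094 (SE, edgeR adjusted p = 0.769). Prkra was 1.85 ± 0.113 times as high as Tarbp2 per length in knockdown libraries and 1.81 ± 0.326 times in control libraries (SD, n = 3 each), with an exact two-sided permutation p of 0.8.

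The partner genes of the pathway were read from lists, of which the block fit gave the counts that follow, to be set against 11.1% of all genes lower and 10.5% higher. The share of all genes called moved with the fit as well. With total count scaling 6.1% were lower and 21.1% higher, and with the gene length offset 7.69% and 9.41%. The block in DESeq2 called 6.92% lower and 4.92% higher, edgeR without pair 1 called 4.97% and 3.96%, and without pair 2 it called 2.85% and 2.56%. Without pair 3, edgeR called 2200 of 13602 genes lower and 1924 higher. Of 18 tested genes that act in microRNA processing and silencing, 6 fell, 1 rose and 11 did not pass, with a median log2 fold change of -0.07. Tnrc6b and Tnrc6c, which encode GW182 scaffold proteins of the silencing complex, fell by 0.52 and 0.41 on the log2 scale, Ago3, an Argonaute, by 0.46 and Tut7, which adds uridine to RNA ends, by 0.33. Tnrc6b was at 69.4, 75.6 and 68.4 CPM in knockdown libraries, against 90.4, 109.9 and 106.7 CPM in control libraries, with no overlap. Ran, the GTPase that drives export with exportin 5, was the gene that rose, by 0.27. It was named after its value was seen. With the gene length offset the list had 2 falls and 3 rises and the falls of Tnrc6c (-0.14) and Ago3 (-0.23) did not pass, and with total count scaling it had 5 falls, 3 rises and a median of 0.03. Tnrc6b passed in all 10 block fits, but its fall was -0.24 with the gene length offset. Without pair 1 the list had 5 falls and 0 rises, and without pair 2 it had 2 falls, those of Tnrc6b and Tnrc6c, and 0 rises. Ran did not pass in either (edgeR adjusted p = 0.0806 and 0.0721).

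Of 9 tested genes with other double-stranded RNA binding domains, 3 rose, 1 fell and 5 did not pass, with a median of -0.05. Among those that rose, Dus2, a tRNA modifying enzyme, did so by 0.42 and the mitochondrial ribosomal gene Mrpl44 by 0.39. Eif2ak2, which encodes PKR, fell by 0.41, at 39.3 ± 1.96 CPM in knockdown libraries and 52.2 ± 3.07 CPM in control libraries (SD, n = 3 each). The list's median was 0.06 with total count scaling and 0.14 with the gene length offset, where the rise of Mrpl44 did not pass. None of the rises passed without pair 1 or without pair 2, and 1 passed with the block in DESeq2, where Dus2 (adjusted p = 0.155) and Mrpl44 (0.152) did not. The fall of Eif2ak2 ended without pair 2 (-0.35, edgeR adjusted p = 0.0817).

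Sensors and effectors of double-stranded RNA had the lowest median of the 6 lists, -0.41. Of 9 tested genes, 4 fell, 1 rose and 4 did not pass. Ifih1, which encodes MDA5, fell by 0.80, with 8.01, 6.97 and 5.86 CPM in knockdown libraries and 13.1, 11.9 and 11.1 CPM in control libraries, which did not overlap. Ddx58, which encodes RIG-I, fell by 0.51, and Eif2ak2 was also among the 4. Zbp1, a sensor of left-handed duplexes, rose by 0.86 at a low level, 3.27 ± 0.708 CPM in knockdown libraries and 1.82 ± 0.634 CPM in control libraries (SD, n = 3 each). With total count scaling, and again with the gene length offset, 3 of the list fell. Without pair 1 there were 3 falls and 0 rises, and without pair 2 the fall of Ifih1 alone passed (-0.81, edgeR adjusted p = 0.0438). Ifih1 passed in all 10 block fits. The rise of Zbp1 ended without pair 1 (edgeR adjusted p = 0.122), without pair 2 (0.212) and with the block in DESeq2 (adjusted p = 0.157).

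Of 11 tested genes of decay by Staufen and by nonsense codons, 2 fell, 0 rose and 9 did not pass, with a median of -0.03. Of all genes, 11.1% were lower in that fit. The falls were those of Smg1, the kinase of UPF1, by 0.35 and of Smg6, an endonuclease, by 0.33. With the gene length offset, and again without pair 2, 0 genes of this list fell (edgeR with the block). With total count scaling 1 rose and 1 fell, and 1 fell without pair 1 and with the block in DESeq2.

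Of 16 tested genes of proteins reported to bind DHX9, 4 rose, 0 fell and 12 did not pass, with a median of 0.11. Hnrnpc rose by 0.35, Top2a, the mitotic topoisomerase, by 0.27 and Hnrnpu by 0.23. Hnrnpc was at 226, 220 and 221 CPM in knockdown libraries, against 177, 179 and 167 CPM in control libraries, with no overlap. With total count scaling 8 rose and 0 fell, in a fit that called 21.1% of all genes higher, and the gene length offset left 4 that rose. The list's median was 0.22 and 0.09 in these fits and 0.05 without pair 1. Total count scaling also gave positive medians to the lists of microRNA partners (0.03), other binding domains (0.06) and decay (0.08). With the gene length offset the list of other binding domains had a higher median, 0.14. Without pair 1, and again without pair 2, 1 gene of this list rose.

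Of 10 genes whose messages are recoded by ADAR enzymes in mammals, 4 fell, 0 rose and 6 did not pass, with a median of -0.25. Flna, which encodes filamin A, fell by 0.46, Tmem63b, an ion channel, by 0.25 and Copa, a coat protein of vesicles, by 0.24. Flna was at 3901, 4854 and 3897 CPM in knockdown libraries, against 5311, 6126 and 5915 CPM in control libraries. With total count scaling 2 of these fell, and Tmem63b (-0.14) and Copa (-0.14) did not pass. Without pair 1, and again without pair 2, 2 fell and Tmem63b and Copa did not pass. Copa also ended with the gene length offset (-0.21, edgeR adjusted p = 0.0549) and Tmem63b with the block in DESeq2 (-0.26, adjusted p = 0.0643), while Flna passed in all 10 block fits. These are levels of the messages, not of their editing.

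**Figure D5:**
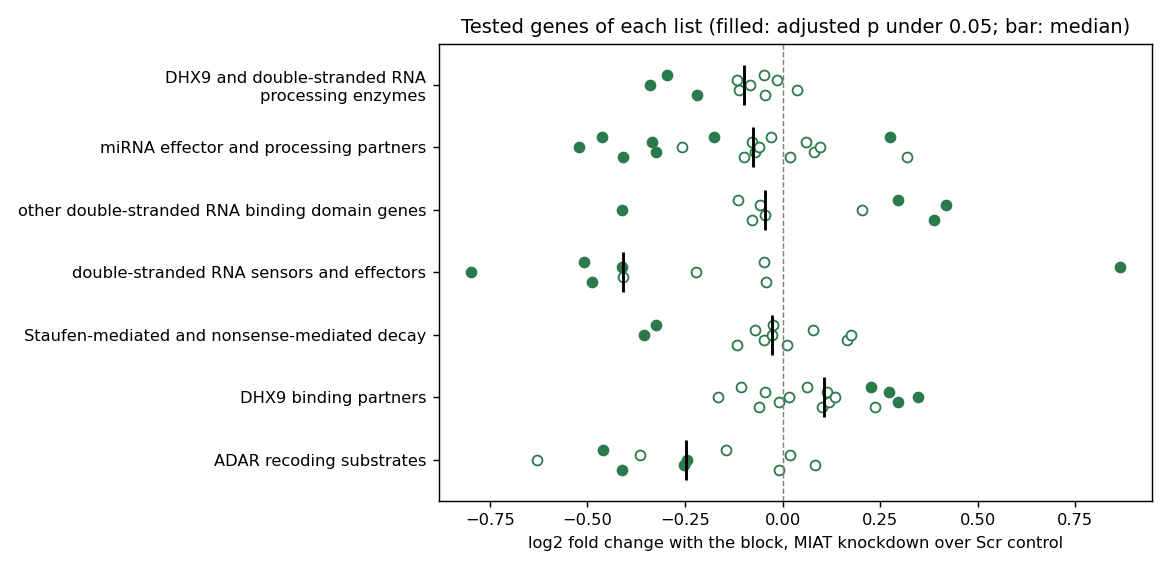
Log2 fold change in the block fit of every tested gene of the 10 followed genes and of the 6 partner lists, MIAT knockdown over Scr control, with filled circles for an adjusted p under 0.05 and a bar at each median. In this fit the sensor list has the lowest median, at -0.41, and the DHX9 partner list the only positive one, at 0.11. With total count scaling further lists had positive medians.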

How the data were processed

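The authors deposited a table of raw counts per gene and a table of FPKM values. Per the values in the deposited FPKM table, 100% of those above 0 equalled the count over 1 length per gene and the library total, within a relative tolerance of 1e-06, so both tables hold the same measurement. For the aligner, the counter, the strand setting and the build, nothing is given in the sources used here. Names matched the RefSeq table of GRCr8 for 16598 of 18631 symbols, which served for names, overlaps and promoter sequences only. The members, lists, ratios and tests were chosen with earlier results of these data known.

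Of these, 13423 genes passed filterByExpr in edgeR 4.0.16 (R 4.3.3), with TMM scaling. The quasi-likelihood test of edgeR compared the groups, with p-values adjusted by Benjamini-Hochberg over the 13423 genes. Its code was tried on simulated counts with pair effects built in, which cannot show whether these libraries are paired. The standard error given is the absolute log2 fold change over the square root of F. After removal of group means, same-numbered libraries correlated at 0.68, 0.52 and 0.58 across genes for pairs 1, 2 and 3, and differently numbered ones at -0.56 to -0.05, a contrast that is partly built in. The pairing comes from the titles' numbers and these correlations, not from a statement in the labels. The biological coefficient of variation was 19.7% without and 8.09% with the block. No library was a copy of another in its group, where chi-square over degrees of freedom was 20.6 to 83.6. Libraries of different groups were not compared in this way. Ratios of FPKM were compared with exact permutation tests in scipy 1.17.1. The named genes are the 10 members, the 4 genes of each list (or fewer) that passed in the block fit with the steepest log2 changes, since the fit without it called none, and the 5 profiles nearest to Dhx9 and to Adar. A few genes picked this way are not reported here but stay in the counts and medians of their lists. Alternatives were DESeq2 1.42.0, limma-voom and limma with a trend on log2 FPKM (limma 3.58.1, pseudocounts 1 and 0.1), other scalings and filters, a loess offset for gene length (span 0.5), and leaving out libraries or pairs.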

Additional observations from a re-analysis of the deposited data

How the results depend on the processing

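Without the block, edgeR called 0 genes and 0 of the 10 followed genes under every scaling, filter and left-out library tried, and only DESeq2 called genes, 699. With the replicate block, 2898 genes and 3 of the 10 were called, with limma-voom 3051 and 3, with DESeq2 size factors 2961 and 3, with no low-count filter 3128 and 3, with the gene length offset 2295 and 1 (Adar), with DESeq2 1590 and 1 (Dhx9), and with total count scaling 3651 and 0. Leaving out a pair with the block gave 1195 and 1 (Adar) without pair 1, 736 and 0 without pair 2, and 4124 and 3 without pair 3. Dhx9, Adar and Stau2 had a negative log2 fold change in all 26 fits. Drosha and Dicer1, never called, also had 1 sign throughout, but Drosha was at -0.0031 with total count scaling and -0.0039 with log2(FPKM + 1), both close to 0, and Dicer1 ranged from 0.0173 to 0.197. Without a library or pair, Dhx9 ranged from -0.27 to -0.13, with -0.13 without knockdown library 3, and Adar from -0.43 to -0.23. The sign of the other genes, none of them called, turned in some fits, and the cause was not tested. With total count scaling the value was 0.0621 for Adarb1, 0.0254 for Tarbp2, 0.0536 for Prkra and 0.0952 for Stau1, and with the block as well 0.0598, 0.0241, 0.0640 and 0.0945. With log2(FPKM + 1) it was 0.0393, 0.0214, 0.0644 and 0.0912, and with log2(FPKM + 0.1) 0.0575, 0.0228, 0.0676 and 0.0941. With the gene length offset Adarb1 was at 0.0695 and Dgcr8 at 0.0040, and with the block as well at 0.0728 and 0.0044. Leaving out a library, Adarb1 ranged from -0.121 to 0.0351, Prkra from -0.189 to 0.118 and Stau1 from -0.0671 to 0.0482. With the block, Adarb1 was at 0.0971 and Prkra at 0.0783 without pair 3, and Stau1 at 0.0039 without pair 2. Leaving out a library, the log2 ratio difference of Drosha to Dgcr8 ranged from -0.0837 to 0.0894 and that of Prkra to Tarbp2 from -0.0586 to 0.186. The other 3 ratios had the same direction without any 1 library. For the ratios, the mean of 3 pair differences equals the difference of group means, so pairing leaves the estimate as it is. A sign-flip test over 3 pairs cannot give a p under 0.25, so it could not decide. That test gave 0.25 for Adar to Adarb1, Dicer1 to Drosha and Stau1 to Stau2. It gave 0.75 for Drosha to Dgcr8 and for Prkra to Tarbp2. A block fit without a pair has few residual degrees of freedom, so a call that ends there can reflect the loss of data. Without pair 3 the calls rose instead, and the edgeR adjusted p of Stau2 went from 0.0395 to 0.0045 on fewer libraries. Calls kept there are therefore not on a par with those of the full fit. Counts near those of Adarb1, 239 to 303 per library, carry the most counting error of the 10.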
